A study of Homo sapiens with 30 samples.

Results

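LOUCY, an established human cell line from an early T cell precursor acute lymphoblastic leukemia (ETP-ALL), was given a doxycycline (dox)-inducible construct for the intracellular domain of NOTCH1 (ICN), and RNA was measured with and without dox. The arrays were chosen by their labels alone: the 3 arrays of the ICN line grown with dox and the 3 arrays of the same line grown without dox, 6 of the 30 arrays of the series. Affymetrix HG U133 Plus 2.0 arrays were used, where 1 or several probe sets read each gene and each value is a log2 expression value. Both groups of 3 carry the ICN construct and were grown in medium without stroma, so that dox is the only labelled difference between them. Beside them stand 3 further comparisons from the series, none of which uses any of these 6 arrays. The first is a line with both a MEF2C and an ICN construct, with dox against without dox (joint MEF2C and ICN induction). The second is the line with a MEF2C construct without dox on OP9-DL1 stroma, mouse stromal cells that display the Notch ligand Delta-like 1, against OP9-GFP stroma, which lack it (DL1 ligand response). The third is the MEF2C line in medium, with dox against without dox (MEF2C induction in medium). Each of these conditions was measured on 3 arrays.

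The study states that LOUCY cells were modified by lentiviral transduction and sorting, and calls its MEF2C line a bulk line. It does not describe the making of the ICN line separately, so that a mixed population is likely there but not stated. How long ICN was induced is not stated in the sources used here. No array of LOUCY without a construct but with dox was analysed here, so that dox and ICN cannot be told apart within this line. In such bulk RNA, fewer cells of a kind and less RNA per cell cannot be told apart either. The labels do not say that the 3 arrays of a group came from separate cultures, so that p-values measure only the spread between arrays, which may be technical.

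Notch receptors are cut after they bind a ligand on a neighboring cell, and the freed intracellular domain moves to the nucleus. There it joins the DNA-binding protein RBPJ and a Mastermind coactivator and turns on target genes, among them the repressors of the HES and HEY families. In the thymus this signal directs progenitors into the T lineage and away from the B lineage, and activating *NOTCH1* mutations are common in T cell leukemia. ICN lacks the extracellular part and acts without a ligand.

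Promoter sequences are shown for the HES and HEY repressors and Notch regulators that rose with dox, so that the RBPJ cores in them can be read. By this rule 5 genes qualified (*HEY1*, *HES1*, *DTX1*, *MAML2* and *SPEN*), and the sequences of 3 are given, from RefSeq, build GRCh38.p14, each from 250 bases before to 50 bases after the start of the gene, 5′ to 3′ on the strand of the gene. *HEY1* and *DTX1* are not shown, although both rose by more than *HES1* and *SPEN*, so that the 3 do not stand for all 5. Capitals mark the RBPJ core, TGGGAA or its complement TTCCCA, searched on both strands.
HES1, chr3:194135898-194136197, plus strand: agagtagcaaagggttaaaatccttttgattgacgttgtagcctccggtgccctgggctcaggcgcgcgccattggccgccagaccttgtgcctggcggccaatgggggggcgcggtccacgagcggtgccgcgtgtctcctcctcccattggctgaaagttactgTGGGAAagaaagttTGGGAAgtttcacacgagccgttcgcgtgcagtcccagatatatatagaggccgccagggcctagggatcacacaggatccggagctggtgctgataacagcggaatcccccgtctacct
SPEN, chr1:15847457-15847756, plus strand: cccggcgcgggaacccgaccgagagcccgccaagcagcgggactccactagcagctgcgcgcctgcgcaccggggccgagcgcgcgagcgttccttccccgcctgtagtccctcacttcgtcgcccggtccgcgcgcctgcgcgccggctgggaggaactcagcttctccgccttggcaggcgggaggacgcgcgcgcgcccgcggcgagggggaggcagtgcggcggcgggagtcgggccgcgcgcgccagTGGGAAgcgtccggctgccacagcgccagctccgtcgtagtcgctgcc
MAML2, chr11:96343146-96343445, minus strand: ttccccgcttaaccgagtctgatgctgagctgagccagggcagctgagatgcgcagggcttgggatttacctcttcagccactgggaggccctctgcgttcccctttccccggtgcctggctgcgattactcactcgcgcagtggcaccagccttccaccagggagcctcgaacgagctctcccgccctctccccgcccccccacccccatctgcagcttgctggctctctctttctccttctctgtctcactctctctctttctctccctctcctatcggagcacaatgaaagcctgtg
The *HES1* promoter held 2 cores, both on the strand of the gene, which begin 84 and 70 bases before the start. The *SPEN* promoter held 1 core, just after the start. Those letters do not occur in the *MAML2* window. Over all 35116 promoters of the same length, 24% held at least 1 core and 3.8% held 2 or more, so that 1 match is common and is a description of the sequence only.

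Arrays within a group were alike, with correlations of 0.9936 to 0.9972 between the 3 arrays with dox and of 0.9953 to 0.9972 between the 3 arrays without dox, against 0.9905 to 0.9978 over all 10 conditions. Genes that define LOUCY were present, with *CD3D*, *PTPRC* (the pan-leukocyte marker CD45), *HHEX* and *MEF2C* at mean log2 values above 10 in both groups. *CD3E*, *LYL1*, *BCL2*, *CD7* and *CD5* had lower means, down to 6.52 with dox and 6.76 without dox for *CD5*. *CD4*, *CD8A* and *CD8B* of later thymocytes, *MS4A1* and *PAX5* of B cells, and *MPO* and *CD14* of myeloid cells were all dim, at means under 6 in both groups. *CD79A*, a signaling chain of the B cell receptor, was not dim, at 8.05 with dox and 7.39 without dox (log2 fold change 0.66 ± 0.15, adjusted p = 0.00404). Its call was lost without dox array 3 (0.47, adjusted p = 0.0507) and when the 6 arrays were fitted alone (adjusted p = 0.0911). *CD1A*, a marker of cortical thymocytes, was bright in both groups, at 9.70 with dox and 9.01 without dox. The stromal marker *COL1A1* averaged 6.99 with dox and 6.90 without dox, above *CD5*. The erythroid marker *HBB* averaged 5.83 with dox and 6.49 without dox. *COL1A2* and *PDGFRB* of stroma and the erythroid *ALAS2* were under 6 in both groups.

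ICN induction changed 1875 of 54613 probe sets by more than 0.6 on the log2 scale with p under 0.05 and q under 0.1, the criteria of the study. Of these, 1049 were higher with dox (1.92%) and 826 were lower with dox (1.51%). When each of 19775 genes was read by its brightest probe set and called at an adjusted p under 0.05, 1273 genes rose (6.44%), 1862 fell (9.42%) and 16640 did not pass. These shares are the background against which each gene list below is read, and the median log2 fold change of all genes was -0.03. Some genes, such as *BCL2* and *CCR7*, stand on more than 1 list, so that the list counts are not independent of each other. Among probe sets with a mean of at least 5 over all arrays the balance of calls turned, to 621 higher and 740 lower with dox. Among larger changes rises outnumbered falls: 435 probe sets rose and 204 fell by more than 1 on the log2 scale at an adjusted p under 0.05.

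*NOTCH1* is read by a bright and a dim probe set, and where each lies relative to the construct is not stated in those sources, so that neither is a check of the induction. The brighter one gave 7.53, 7.58 and 7.64 with dox, against 7.59, 7.52 and 7.60 without dox (log2 fold change 0.01 ± 0.08 SE, adjusted p = 0.957), and the groups overlapped. The dimmer one gave 4.76, 4.60 and 5.29 with dox, against 4.41, 4.37 and 4.19 without dox (0.56 ± 0.15, adjusted p = 0.0129), with no overlap. This dimmer probe set was also higher with dox under joint MEF2C and ICN induction, by 0.81 ± 0.15 (adjusted p = 0.000345). It gave -0.05 ± 0.15 for the DL1 ligand response and 0.08 ± 0.15 for MEF2C induction in medium, where no ICN construct was present, and neither of these passed.

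The HES and HEY repressors did not respond alike, and *HEY1* had the largest rise of all genes named. Of 9 measured members of the family, 2 rose (22.2%), 1 fell (11.1%) and 6 did not pass. *HEY1*, a repressor switched on directly by Notch in many tissues, gave 12.06, 11.97 and 11.91 with dox, against 7.11, 6.92 and 7.02 without dox (log2 fold change 4.96 ± 0.10, adjusted p = 3.74e-21), a 31.2-fold difference. Both *HEY1* probe sets rose, and no array of 1 group came near the other group. *HEY1* with dox was higher in the ICN line than in any of the other 9 conditions, whose means ran from 4.95 in the MEF2C line in medium without dox to 7.80 with joint induction.

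*HES1*, the classical Notch target in T cells, rose by less. It gave 10.72, 10.501 and 10.56 with dox, against 10.27, 10.23 and 10.08 without dox (log2 fold change 0.40 ± 0.10, adjusted p = 0.00746), and the groups did not overlap. The *HES1* call was lost when dox array 1 or no-dox array 3 was left out (adjusted p = 0.0524 and 0.0521), and 1 of its 3 probe sets passed. The level of *HES1* without dox was already high, at 10.19 ± 0.10 (SD, n = 3) in the ICN line. It was 9.34 ± 0.06 in the line with both constructs without dox, and 5.59 ± 0.24 in the MEF2C line in medium without dox. No test was made between these separate lines.

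*HES4*, which mouse lacks, gave 8.37, 10.30 and 10.16 with dox, against 9.09, 9.19 and 9.36 without dox and did not pass (adjusted p = 0.676). Dox array 1 lay below all arrays without dox, while dox arrays 2 and 3 lay above them. *HES6*, a member of the family known to hinder HES1, fell, at 7.01, 6.86 and 7.08 with dox, against 7.32, 7.44 and 7.34 without dox (log2 fold change -0.39 ± 0.07, adjusted p = 0.000287). *HES2*, *HES5*, *HES7*, *HEY2* and *HEYL* had log2 fold changes between -0.15 and 0.22 and did not pass, and *HES5* and *HEY2* were near the floor of the array, with means under 4.

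Of 12 measured receptors and ligands, 1 rose and 1 fell (8.33% each) when each was read by its brightest probe set. With the probe set of largest SD, or the mean over probe sets, 3 rose and 1 fell. At the brightest probe sets the median log2 fold change was 0.01. *JAG2*, a Notch ligand, fell by 0.30 (SE 0.07, adjusted p = 0.00457) and gave 6.18, 6.19 and 6.18 with dox, against 6.49, 6.48 and 6.49 without dox, with no overlap. *DNER*, a membrane protein described as a Notch ligand, rose by 0.35 at the lowest part of the range, with means of 2.16 with dox and 1.81 without dox. Its call was lost in 4 of the 6 fits that left out 1 array, without dox array 1 or 3 or no-dox array 1 or 2, with adjusted p = 0.0576 to 0.168.

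*NOTCH3*, a receptor gene that is itself a known Notch target in T cells, was read differently by its probe sets. The brightest over all arrays, which stands for the gene in the counts above, gave 5.47, 5.74 and 5.52 with dox, against 5.49, 5.42 and 5.57 without dox and did not pass (adjusted p = 0.54). The other gave 6.15, 5.50 and 5.97 with dox, against 4.56, 4.25 and 4.19 without dox (log2 fold change 1.54 ± 0.13, adjusted p = 9.27e-10), with no overlap. At this other probe set joint MEF2C and ICN induction gave 0.32 ± 0.13 (adjusted p = 0.105) and the DL1 ligand response -0.03 ± 0.13 (adjusted p = 0.967). The difference between ICN induction and each of these was 1.22 ± 0.18 (adjusted p = 2.53e-05) and 1.56 ± 0.18 (adjusted p = 8.32e-07).

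Among 33 measured genes for the processing and feedback of Notch, 3 rose (9.09%), 6 fell (18.2%) and 24 did not pass. *DTX1*, which encodes Deltex, an E3 ligase and feedback regulator of Notch, gave 8.31, 7.91 and 8.14 with dox, against 6.13, 5.25 and 6.05 without dox (log2 fold change 2.31 ± 0.18, adjusted p = 3.89e-10). The groups were far apart, although no-dox array 2 lay below the other arrays without dox. *MAML2*, a Mastermind coactivator that completes the ICN and RBPJ complex, gave 6.94, 6.82 and 6.80 with dox, against 4.87, 4.53 and 4.41 without dox (log2 fold change 2.25 ± 0.13, adjusted p = 5.69e-13), and its other probe set did not pass (0.36, adjusted p = 0.0678). *SPEN*, a corepressor that works with RBPJ, rose by 0.29 (SE 0.08, adjusted p = 0.0217). Its call was lost without dox array 1 or no-dox array 2 or 3, with adjusted p = 0.0792 to 0.18.

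The members that fell act at several steps. *DTX4*, a relative of *DTX1*, gave 7.31, 7.16 and 7.19 with dox, against 8.08, 7.92 and 7.96 without dox (log2 fold change -0.77 ± 0.08, adjusted p = 4.89e-08). *MFNG* and *LFNG*, Fringe enzymes that add sugars to the receptor and tune its choice of ligand, fell by 0.59 (adjusted p = 1.6e-05) and 0.39 (adjusted p = 0.0196). The *LFNG* call was lost without dox array 1 or no-dox array 1 or 3 (adjusted p = 0.0773 to 0.115). *POGLUT1*, which glucosylates the receptor, *APH1B*, a subunit of the gamma-secretase that frees the intracellular domain, and *MIB1*, an E3 ligase needed in the cell that sends the signal, fell by 0.43, 0.49 and 0.27 (adjusted p = 1.4e-06, 9.85e-06 and 0.00293), and the *MIB1* call was lost with the 6 arrays alone (adjusted p = 0.144). *RBPJ* itself averaged 10.49 ± 0.04 with dox and 10.40 ± 0.09 without dox (SD, n = 3 each) and did not pass. *NRARP*, a feedback inhibitor and common Notch readout, gave 5.08, 5.07 and 4.90 with dox, against 5.23, 5.33 and 5.39 without dox and did not pass (-0.30 ± 0.11, adjusted p = 0.0626), and the 3 arrays with dox were the lower ones.

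Of 29 measured genes described as Notch targets in T cells, 12 rose (41.4%), 6 fell (20.7%) and 11 did not pass, with a median log2 fold change of 0.06. *TCF7* and *BIRC3*, also on this list, had no probe set under that name alone and were not analysed here. *RHOU*, a small GTPase, gave 10.85, 10.65 and 10.67 with dox, against 8.29, 8.31 and 8.31 without dox (log2 fold change 2.42 ± 0.11, adjusted p = 1.09e-14). *IL7R*, the receptor chain through which IL-7 keeps early T cells alive, gave 9.98, 9.85 and 9.81 with dox, against 8.17, 7.92 and 7.94 without dox (log2 fold change 1.87 ± 0.12, adjusted p = 7.91e-12). For both, and for *LZTFL1*, which helps direct traffic to the cilium, and *CD28*, the costimulatory receptor, the groups lay more than 1 apart. *LZTFL1* gave 10.08, 10.04 and 9.998 with dox, against 8.63, 8.73 and 8.63 without dox (log2 fold change 1.38 ± 0.09, adjusted p = 3.02e-11). *CD28* gave 9.59, 9.60 and 9.63 with dox, against 8.42, 8.45 and 8.51 without dox (log2 fold change 1.15 ± 0.09, adjusted p = 2.05e-10).

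The other rises among these targets were smaller. *PLXND1* rose by 0.96, *IGF1R* by 0.85, *GZMB* by 0.83, *SHQ1*, an assembly factor of H/ACA RNA-protein complexes, by 0.75, *CDKN1A*, the cell cycle inhibitor p21, by 0.74, *LTB* by 0.70, *CCND3* by 0.49 and *TRIB2* by 0.49. *GZMB* stayed dim, at means of 4.39 with dox and 3.56 without dox.

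Other targets on the same list fell. *CCR7*, the chemokine receptor that guides lymphocytes to lymph nodes, gave 4.87, 4.36 and 4.27 with dox, against 6.02, 5.91 and 5.80 without dox (log2 fold change -1.41 ± 0.13, adjusted p = 1.07e-08). *TSPAN7*, a tetraspanin, gave 10.24, 10.05 and 10.13 with dox, against 11.27, 11.26 and 11.29 without dox (log2 fold change -1.14 ± 0.06, adjusted p = 8.39e-14). *CD44* fell by 0.72 and *GATA3*, a master factor of the T lineage, by 0.51 (adjusted p = 2.5e-08 and 2.74e-07), while *CD44* was called higher by 1 and lower by 8 of its 13 probe sets. *SKP2* and *CDK4*, which promote the cell cycle, fell by 0.33 and 0.29, and both calls were lost with the 6 arrays alone (adjusted p = 0.0518 and 0.0562). *PTCRA*, the pre-T cell receptor alpha chain, had -0.14 ± 0.11 and did not pass. *MYC*, another direct target, stayed near the floor of the array, with means of 2.86 with dox and 2.80 without dox, and no change was detectable at its single probe set.

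**Figure D1:**
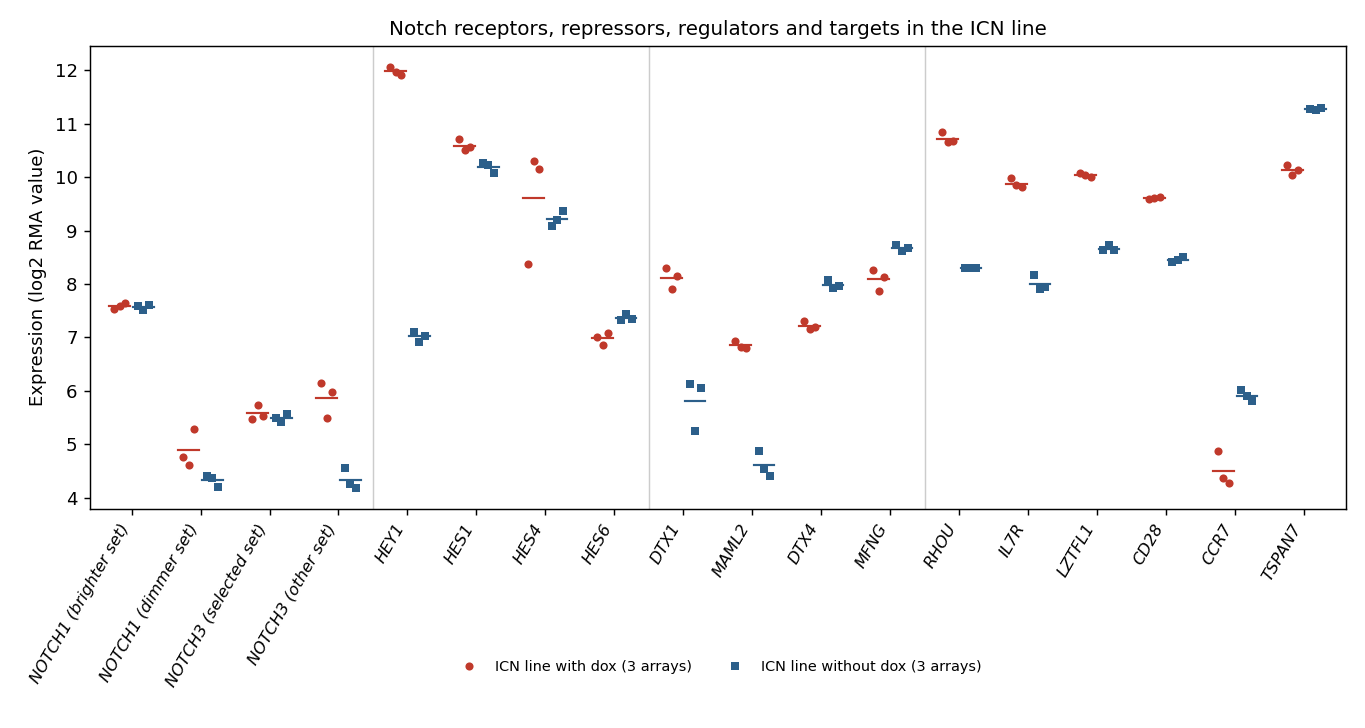
Log2 expression of Notch genes on each array of the ICN line, with dox (circles, left of each pair) and without dox (squares, right). Horizontal lines are means of 3 arrays. *HEY1* stands farthest apart, *HES1* differs little, and 1 probe set each of *NOTCH1* and *NOTCH3* separates the groups while the other does not.

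The largest changes were named among 699 genes that passed at more than 0.6 on the log2 scale, did not overlap between groups and had a mean of at least 5 in the higher group. Of these, 326 rose and 373 fell, and 24 moved by more than 3. After *HEY1*, the largest rise was *CHI3L2*, a secreted chitinase-like protein, with 11.14, 11.10 and 11.12 with dox, against 6.26, 6.12 and 6.13 without dox (log2 fold change 4.95 ± 0.13, adjusted p = 2.21e-19). *CD300A*, an inhibitory receptor of leukocytes, gave 9.59, 9.30 and 9.34 with dox, against 4.67, 4.71 and 4.36 without dox (log2 fold change 4.83 ± 0.15, adjusted p = 7.09e-18), a rise seen at 2 probe sets out of 3. *MMP9*, a secreted gelatinase, gave 10.71, 10.80 and 10.92 with dox, against 6.39, 6.32 and 6.43 without dox (log2 fold change 4.43 ± 0.11, adjusted p = 5.58e-20). In each of these genes the lowest array with dox lay more than 4 above the highest array without dox.

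*SLC3A1*, a subunit of an amino acid transporter, gave 9.08, 8.96 and 9.03 with dox, against 4.59, 4.37 and 4.64 without dox (log2 fold change 4.49 ± 0.17, adjusted p = 2.32e-16). *FBXO2*, the substrate-binding part of a ubiquitin ligase, gave 8.35, 8.66 and 8.75 with dox, against 4.17, 4.06 and 4.23 without dox (log2 fold change 4.43 ± 0.13, adjusted p = 1.08e-18). *IL26*, a cytokine of the IL-10 family, gave 8.72, 8.80 and 8.76 with dox, against 4.72, 5.10 and 4.70 without dox (log2 fold change 3.92 ± 0.19, adjusted p = 3.06e-14). *ERBB4*, a receptor tyrosine kinase, gave 7.21, 6.87 and 7.04 with dox, against 3.32, 3.11 and 3.39 without dox (log2 fold change 3.76 ± 0.15, adjusted p = 1.29e-15), with 2 of its 4 probe sets higher. The remaining 7 of the 15 largest rises were a probe set annotated to the immunoglobulin segment *IGHV1-69* (4.72), the noncoding *LINC01120* (4.07), *LINC02762* (3.79), *CCDST* (3.71) and *UMODL1-AS1* (3.48), the membrane protein gene *TMEM100* (3.99), and *MYO7B* (3.37), which encodes a myosin of the intestinal brush border. The *IGHV1-69* name comes from an older annotation of that probe set and was not checked by sequence.

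The largest fall was *GFI1B*, a zinc finger repressor needed in red cell and platelet precursors, with 5.41, 5.28 and 5.36 with dox, against 8.99, 8.80 and 8.94 without dox (log2 fold change -3.56 ± 0.08, adjusted p = 3.74e-21). *RHEX*, a regulator of red cell expansion, gave 7.58, 7.29 and 7.10 with dox, against 10.76, 10.64 and 10.63 without dox (log2 fold change -3.35 ± 0.08, adjusted p = 1.69e-20). *NOG*, the secreted BMP antagonist Noggin, gave 4.75, 5.23 and 5.17 with dox, against 7.98, 7.81 and 7.79 without dox (log2 fold change -2.81 ± 0.11, adjusted p = 3.08e-16). *GFI1B* and *RHEX* are known from red cell precursors, as is the globin gene *HBD*. These were picked by the size of their fall. On the erythroid list 2 of 8 measured genes fell (25%, against 9.42% of all genes) and 6 did not pass, with a median log2 fold change of -0.05.

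*HBD*, the delta-globin gene, gave 4.71, 4.31 and 4.20 with dox, against 7.18, 7.08 and 7.19 without dox (log2 fold change -2.74 ± 0.12, adjusted p = 2.26e-15). *MYCN*, a MYC family transcription factor, gave 8.17, 8.07 and 7.99 with dox, against 10.12, 10.08 and 9.97 without dox (log2 fold change -1.98 ± 0.07, adjusted p = 4.77e-17), with 2 of its 10 probe sets lower and the others not passing. *S100A4*, a calcium-binding protein, gave 10.04, 10.01 and 10.05 with dox, against 11.86, 11.92 and 11.87 without dox (log2 fold change -1.85 ± 0.07, adjusted p = 9.6e-17). The spread between arrays was small against each of these falls. The other 9 of the 15 largest falls were *RSPH1* of the ciliary radial spoke (-2.39), the clock gene *PER3* (-2.27), cyclin A1 *CCNA1* (-2.22), the hedgehog-binding *HHIP* (-2.05) and its antisense partner *HHIP-AS1* (-1.98), *CST7*, an inhibitor of cathepsins in cytotoxic cells (-2.04), *HEMGN*, a nuclear protein of blood precursors (-1.98), a probe set annotated to *MIR146A* (-1.85) and *AFF3* (-1.84).

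The 30 genes were also read in the other comparisons. Of the 15 largest rises, 10 also rose under joint MEF2C and ICN induction, against 5.84% of all genes, and of the 15 largest falls, 14 also fell, against 10.9% of all genes. In the DL1 ligand response 3 of the 15 rises rose (*HEY1*, *MMP9* and *IL26*), against 1.02% of all genes, and 6 of the 15 falls fell, against 0.612%. With MEF2C induction in medium, where dox was given without an ICN construct, 1 of the 15 rises rose (*HEY1*, by 0.43), against 5.03% of all genes. Of the 15 falls, 5 fell there, against 3.58%, and 4 rose (*NOG*, *HEMGN*, *MYCN* and the *MIR146A* probe set). The largest rises had median log2 fold changes of 1.06 with joint induction, 0.07 with the ligand and -0.01 with MEF2C in medium, and the largest falls -2.23, -0.34 and -0.21.

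**Figure D2:**
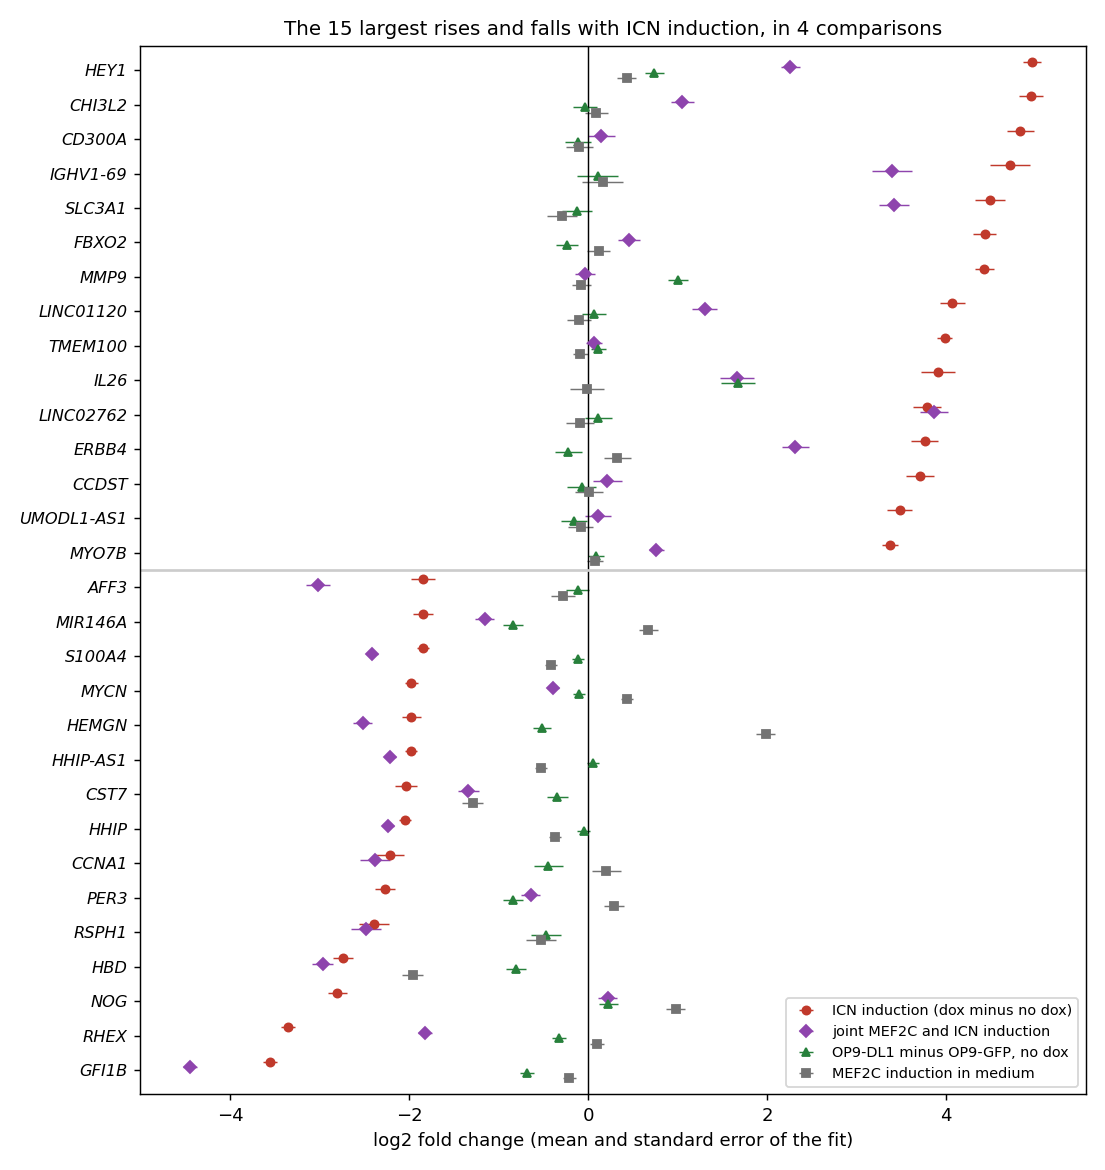
Log2 fold change and SE of the fit for the 15 largest rises (top) and 15 largest falls (bottom) with ICN induction (circles), beside joint MEF2C and ICN induction (diamonds), the DL1 ligand response (triangles) and MEF2C induction in medium (squares). *CD300A*, *MMP9*, *TMEM100*, *CCDST* and *UMODL1-AS1* rose with ICN induction and did not pass with joint induction, and *GFI1B* fell in both.

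The CD3 chains of the T cell receptor rose together. Of 7 measured genes of the complex, 4 rose (57.1%) and 1 fell (14.3%). *CD3G* gave 10.71, 10.87 and 10.81 with dox, against 9.60, 9.52 and 9.51 without dox (log2 fold change 1.25 ± 0.11, adjusted p = 2.38e-09). *CD3E* gave 8.73, 8.25 and 8.53 with dox, against 7.68, 7.74 and 7.67 without dox (log2 fold change 0.81 ± 0.09, adjusted p = 1.43e-07), and *CD3D*, the brightest gene of the list, gave 13.11, 12.95 and 12.96 with dox, against 12.32, 12.21 and 12.27 without dox (log2 fold change 0.74 ± 0.06, adjusted p = 5.73e-10). *CD247*, the zeta chain, rose by 0.41 (adjusted p = 0.000949), with 1 of its 2 probe sets, a call lost with the 6 arrays alone (adjusted p = 0.0589). *TRDV3*, a variable segment of the delta chain, fell by 0.31 (adjusted p = 0.000167). *TRAC*, *TRBC2*, *TRDC*, *TRGC1* and *TRGC2* had no probe set under that name alone and were not analysed here.

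The kinases *LCK*, *FYN* and *ZAP70* rose as well, while members of other kinds moved in both directions. Of 24 measured T cell signaling genes, 7 rose (29.2%) and 9 fell (37.5%). *LCK*, the kinase that starts the signal at the receptor, gave 11.73, 11.73 and 11.68 with dox, against 10.82, 10.67 and 10.71 without dox (log2 fold change 0.98 ± 0.06, adjusted p = 4.85e-12). *FYN*, its relative, gave 10.29, 10.07 and 10.14 with dox, against 9.07, 9.05 and 9.06 without dox (log2 fold change 1.11 ± 0.07, adjusted p = 1.72e-11), with all 5 of its probe sets higher. *PTPN6*, the inhibitory phosphatase SHP-1, gave 11.28, 10.67 and 10.93 with dox, against 9.36, 9.77 and 9.67 without dox (log2 fold change 1.36 ± 0.11, adjusted p = 4.88e-10). *ZAP70* and *TRAT1* rose by 0.36 and 0.68. *SLA2*, *TESPA1*, *UBASH3A*, *RASGRP1* and *SH2D1A*, which encode adaptors and regulators of this pathway, fell by 0.79, 0.70, 0.63, 0.62 and 0.61.

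Stage markers and factors of the T lineage moved in both directions. *CD1B*, a lipid-presenting molecule of cortical thymocytes, gave 6.26, 6.23 and 6.18 with dox, against 4.61, 4.78 and 3.86 without dox (log2 fold change 1.81 ± 0.17, adjusted p = 1.13e-08), and its relatives *CD1A* and *CD1C* rose by 0.70 and 0.37. *RAG1*, the recombinase of receptor gene segments, gave 5.25, 5.20 and 5.11 with dox, against 3.48, 3.46 and 3.35 without dox (log2 fold change 1.76 ± 0.13, adjusted p = 2.41e-10), at 1 of its 2 probe sets, while *RAG2* and *DNTT* did not pass. Of 20 measured transcription factors of the T lineage, 5 rose (25%) and 4 fell (20%). The list also holds *TCF7*, which was not measured. *BCL11B*, which locks in the T lineage, gave 10.14, 10.21 and 10.17 with dox, against 9.51, 9.51 and 9.58 without dox (log2 fold change 0.64 ± 0.07, adjusted p = 4.72e-07). This call was lost with the probe set of largest SD (0.69, adjusted p = 0.184). *ID3* and *GFI1* rose by 0.64 and 0.60, and *TOX*, needed in developing CD4 cells, fell by 0.75 (adjusted p = 9.25e-11). *ITGA4*, an integrin chain that holds progenitors in their niche, gave 10.29, 10.22 and 10.29 with dox, against 11.16, 11.21 and 11.13 without dox (log2 fold change -0.90 ± 0.06, adjusted p = 1.09e-11). *CD4*, *CD8A*, *CD8B*, *CD34* and *KIT* did not pass.

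Genes of the B lineage moved in both directions. Of 11 measured immunoglobulin genes, 5 fell (45.5%) and 0 rose when each was read by its brightest probe set. With the probe set of largest SD 3 rose and 3 fell, and with the mean over probe sets 2 rose and 3 fell. *VPREB1*, part of the surrogate light chain of pre-B cells, gave 9.91, 10.16 and 10.09 with dox, against 11.57, 11.52 and 11.51 without dox (log2 fold change -1.48 ± 0.10, adjusted p = 3.53e-11). *IGLL1*, its partner, gave 11.62, 12.01 and 12.07 with dox, against 12.53, 12.70 and 12.75 without dox (log2 fold change -0.76 ± 0.11, adjusted p = 1.8e-05). The heavy chain genes cannot be given 1 direction. *IGHM* gave 10.05, 9.91 and 10.05 with dox, against 11.08, 10.95 and 11.03 without dox at its brightest probe set, where it fell, but 3 of its 5 probe sets rose, by 1.14 to 2.08. *IGHD* fell at 3 of its 5 probe sets and rose at 1, by 1.39. *IGLC1* fell by 0.83, at 2 of its 9 probe sets.

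Among 18 factors of the B lineage, 3 rose (16.7%) and 4 fell (22.2%). *POU2AF1*, a coactivator of immunoglobulin genes, gave 9.25, 9.01 and 9.17 with dox, against 7.59, 7.53 and 7.33 without dox (log2 fold change 1.66 ± 0.14, adjusted p = 1.65e-09), at 1 of its 2 probe sets. *IRF8* gave 6.75, 6.21 and 6.42 with dox, against 4.73, 4.75 and 5.15 without dox (log2 fold change 1.58 ± 0.18, adjusted p = 2.54e-07). *BCL11A* gave 9.63, 9.79 and 9.73 with dox, against 8.40, 8.36 and 8.21 without dox (log2 fold change 1.39 ± 0.07, adjusted p = 2.21e-14), with all 4 of its probe sets higher. *POU2F2*, the octamer factor that *POU2AF1* protein binds, fell by 1.14, and *IKZF1*, *XBP1* and *IKZF3* fell by 0.42, 0.41 and 0.32. The *IKZF1* call was lost with the probe set of largest SD (adjusted p = 0.155) and with the mean over probe sets (adjusted p = 0.0602). *PAX5* and *EBF1*, which define B cells, did not pass. On the list of 23 B cell receptor and surface genes, 3 rose (13%) and 4 fell (17.4%).

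Many progenitor and ETP-ALL genes fell. Of 23 measured, 10 fell (43.5%, against 9.42% of all genes), 1 rose (4.35%, against 6.44%) and 12 did not pass, with a median log2 fold change of -0.18. Besides *MYCN*, the largest was *BCL2*, which protects cells from apoptosis, with 7.84, 7.50 and 7.66 with dox, against 9.32, 9.27 and 9.18 without dox (log2 fold change -1.59 ± 0.07, adjusted p = 4.41e-15), at 2 of its 4 probe sets. *LYL1*, a stem cell factor rearranged in some T cell leukemias, gave 8.66, 8.40 and 8.61 with dox, against 9.63, 9.42 and 9.505 without dox (log2 fold change -0.96 ± 0.07, adjusted p = 3.8e-10). *LMO2*, its partner, gave 7.63, 7.39 and 7.52 with dox, against 8.35, 8.33 and 8.33 without dox (log2 fold change -0.82 ± 0.08, adjusted p = 9.72e-09). None of these overlapped between groups.

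*HHEX*, which stands downstream of LMO2 in mouse thymocytes, gave 10.24, 10.02 and 10.18 with dox, against 10.77, 10.78 and 10.84 without dox (log2 fold change -0.65 ± 0.08, adjusted p = 2.18e-06). *ZEB2*, *NFE2* and *IGFBP7* fell by 0.81, 0.72 and 0.62, and *MYB* by 0.18 (adjusted p = 0.0447). *MEF2C*, the oncogene that LOUCY expresses through a rearrangement near it, fell by 0.26 (SE 0.05, adjusted p = 0.000439) and stayed bright, with 10.06, 10.05 and 10.04 with dox, against 10.31, 10.34 and 10.27 without dox. All 3 probe sets that carry the *MEF2C* name alone were lower with dox, and any other was not analysed here. The call of the brightest was lost when the 6 arrays of the ICN line were fitted alone (adjusted p = 0.0816). *MN1* was the single member that rose, by 0.41 (adjusted p = 0.00401). *HOXA3*, *HOXA5*, *HOXA7*, *HOXA9* and *HOXA10*, also on this list, had no probe set under that name alone and were not analysed here.

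**Figure D3:**
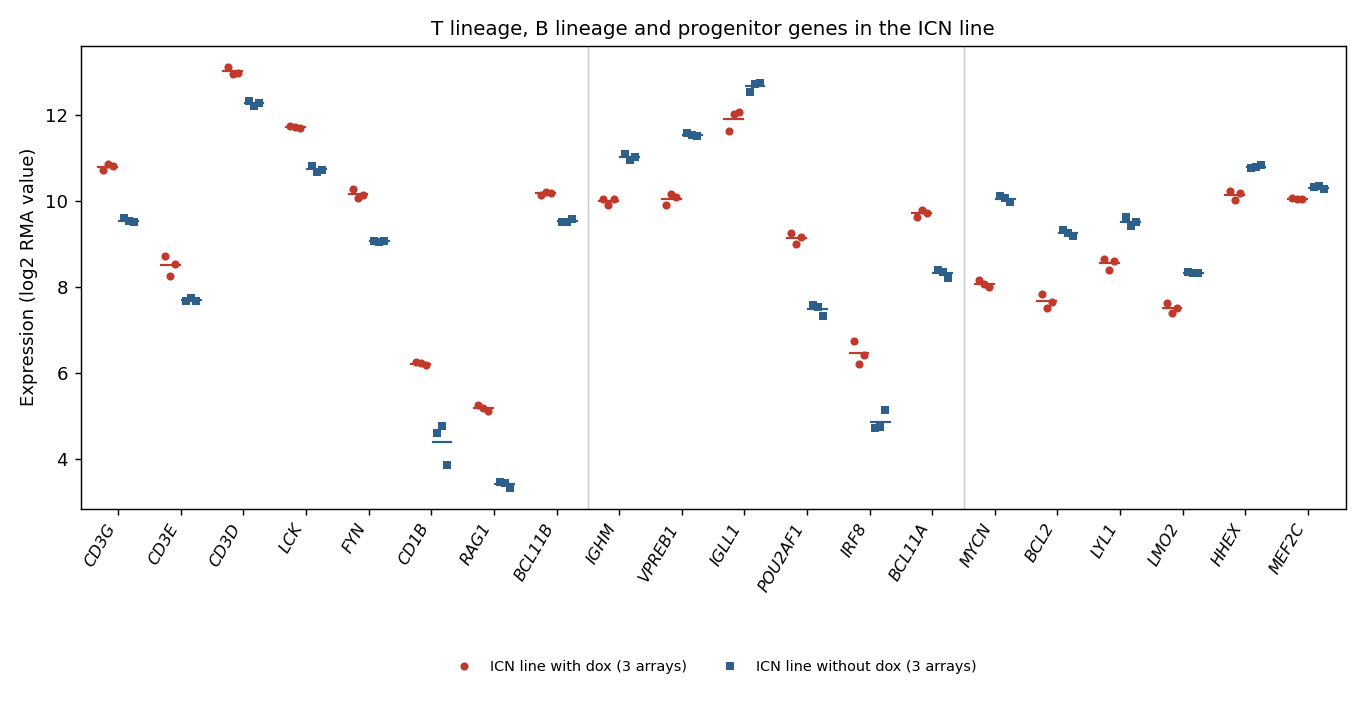
Log2 expression of T lineage (left), B lineage (middle) and progenitor genes (right) on each array of the ICN line, with dox (circles, left of each pair) and without dox (squares, right). Horizontal lines are means of 3 arrays. The CD3 chains, *LCK*, *FYN* and *CD1B* lie higher with dox, and *VPREB1*, *MYCN*, *BCL2*, *LYL1* and *LMO2* lower. *IGHM* is drawn at its brightest probe set, and 3 of its 5 probe sets went the other way.

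Cytokine and survival genes changed around *IL7R* and *BCL2*. On the list for IL-7 receptor and JAK-STAT signaling 17 genes were measured, of which 5 rose (29.4%) and 4 fell (23.5%). *PIM1*, *SOCS2* and *JAK1* rose by 0.71, 0.68 and 0.66, and *STAT5A* and *STAT5B*, the factors that IL-7 activates, fell by 0.35 and 0.28. In the *BCL2* family 3 of 14 rose and 3 fell (21.4% each). *BMF*, which promotes cell death, gave 6.58, 7.13 and 7.25 with dox, against 5.94, 5.55 and 5.75 without dox (log2 fold change 1.24 ± 0.14, adjusted p = 1.72e-07), and *BCL2A1*, which opposes it, gave 6.53, 6.29 and 6.35 with dox, against 5.49, 5.35 and 5.24 without dox (log2 fold change 1.03 ± 0.15, adjusted p = 1.45e-05). *MCL1* and *BCL2L1* did not pass.

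Genes of the ERK pathway split. Of 22 measured feedback and early response genes, 7 rose (31.8%) and 2 fell (9.09%). *SPRY1*, an inhibitor of the pathway, gave 7.25, 6.97 and 7.03 with dox, against 8.81, 8.72 and 8.60 without dox (log2 fold change -1.63 ± 0.08, adjusted p = 2.4e-14). *SPRY4*, from the same family, gave 8.14, 7.47 and 7.84 with dox, against 6.56, 6.51 and 6.35 without dox (log2 fold change 1.34 ± 0.14, adjusted p = 6.72e-08). *ETV5*, an ETS factor induced by ERK, fell by 1.45 (adjusted p = 2.99e-13), while *EGR1*, *FOS* and *DUSP6* rose by 1.32, 1.12 and 0.76.

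*NR3C1*, the glucocorticoid receptor, gave 11.01, 11.10 and 11.04 with dox, against 9.96, 9.63 and 9.81 without dox (log2 fold change 1.25 ± 0.07, adjusted p = 1.27e-12), with all 5 of its probe sets higher. Of 9 measured genes of the glucocorticoid response, 2 rose (22.2%) and 4 fell (44.4%), including *DUSP1*, *TSC22D3* and *FKBP5*, by 0.86, 0.66 and 0.61. *HDAC4*, a histone deacetylase that binds MEF2 proteins, gave 9.29, 9.37 and 9.37 with dox, against 8.004, 8.09 and 8.06 without dox (log2 fold change 1.29 ± 0.08, adjusted p = 2.63e-12). *HDAC5*, from the same class, rose by 0.54 and *HDAC9* fell by 0.48. *GZMA*, a granzyme, gave 12.43, 12.43 and 12.40 with dox, against 10.70, 10.82 and 10.81 without dox (log2 fold change 1.65 ± 0.09, adjusted p = 2.15e-13), while *PRF1*, perforin, fell by 0.77. On the list of 21 NK and cytotoxic genes, 4 rose (19%) and 6 fell (28.6%).

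**Figure D4:**
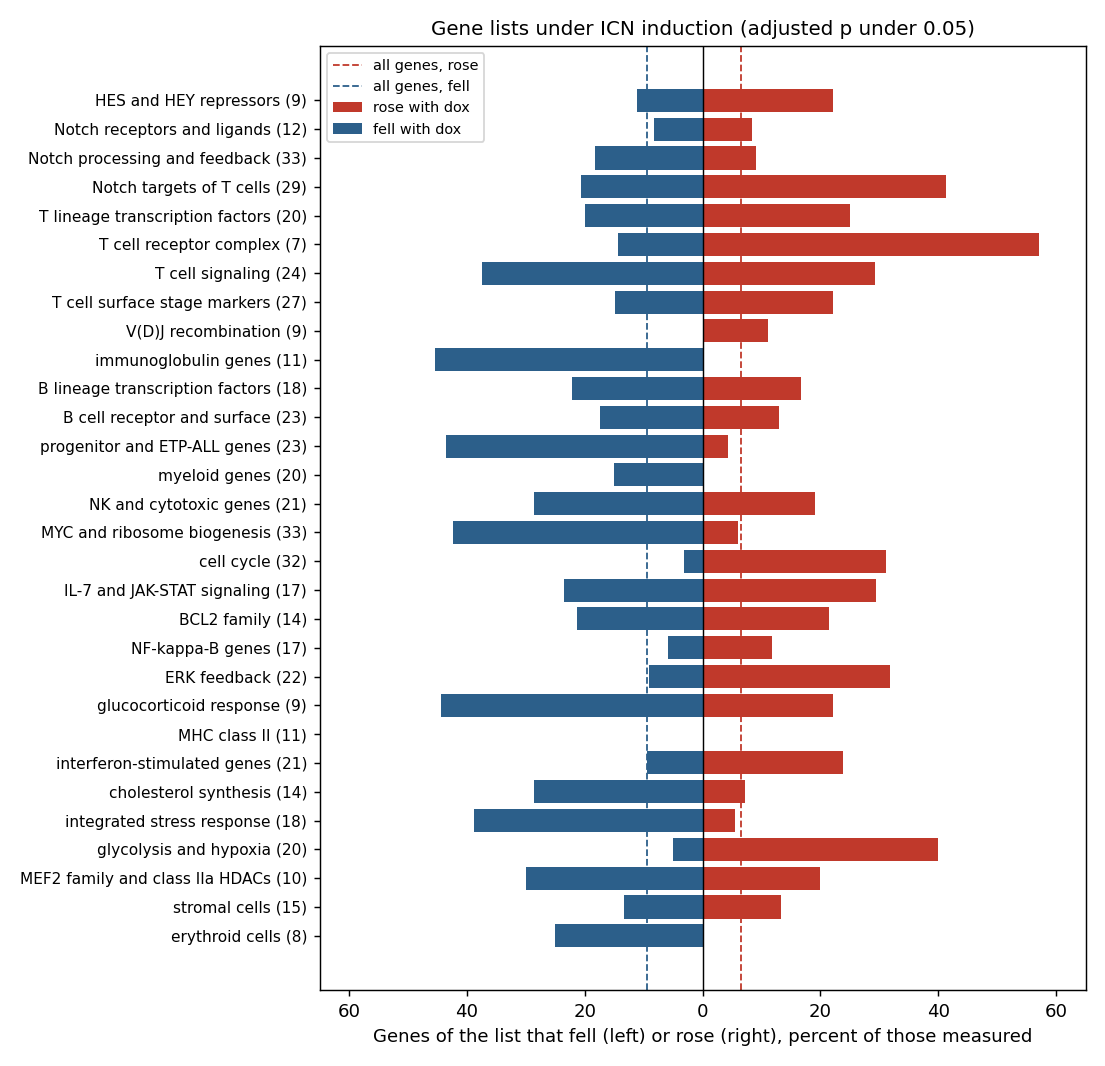
Share of the measured genes of each list that fell (left) or rose (right) with dox in the ICN line at an adjusted p under 0.05, in percent, with the number measured in parentheses. Dashed lines mark all genes, 6.44% risen and 9.42% fallen. T cell receptor, Notch target and glycolysis lists reach farthest to the right, and immunoglobulin, glucocorticoid, progenitor and MYC lists farthest to the left. Each gene is read by its brightest probe set, and the immunoglobulin balance depends on that choice.

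Against joint MEF2C and ICN induction, the response differed at 2457 probe sets (4.5%). The genes with the widest differences were chosen for them, so that these differences are a description. The lines are separate too, so that line, starting level and MEF2C induction cannot be told apart here. *CD300A*, *MMP9*, *FBXO2* and *TMEM100* were higher by 4.83, 4.43, 4.43 and 3.99 with ICN induction, against 0.15, -0.03, 0.46 and 0.07 with joint induction. *PLCB4*, a phospholipase C, rose by 2.36 with ICN induction and fell by 2.04 with joint induction. *EFEMP1*, an extracellular matrix protein, rose by 2.08 with ICN induction, against a rise of 7.57 with joint induction. *KYNU*, *SHISA2* and *LGMN* also rose less with ICN induction, by 0.86, 0.41 and 2.71, against 4.53, 3.68 and 5.68. *NOG* fell by 2.81 with ICN induction and had 0.22 with joint induction (adjusted p = 0.21).

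The Notch genes differed between these settings too. *HEY1* rose by 4.96 with ICN induction and by 2.26 with joint induction, a difference of 2.70 ± 0.15 (adjusted p = 7.12e-13). *HES1* showed the reverse, 0.40 against 1.57, a difference of -1.17 (adjusted p = 1.63e-06). *IL7R* rose by 1.87 against 4.65 (adjusted p of the difference = 5.57e-12). Its level was 9.88 ± 0.09 with dox and 8.01 ± 0.14 without dox in the ICN line, and 9.40 ± 0.05 with dox and 4.74 ± 0.11 without dox in the line with both constructs (SD, n = 3 each). Without dox, *HEY1* also averaged 7.02 in the ICN line and 5.54 in the line with both constructs. No test was made between these lines. *MAML2* rose by 2.25 with ICN induction and fell by 1.10 with joint induction (adjusted p of the difference = 3.69e-13). *DTX1* rose in both, by 2.31 and 2.78, and the difference did not pass (adjusted p = 0.325). *LCK* rose by 0.98 here and had -0.34 with joint induction (adjusted p of the difference = 2.36e-11), and *BCL2* fell by 1.59 here and had 0.16 with joint induction (adjusted p of the difference = 1.03e-12). Of the 12 Notch targets that rose with ICN induction, 7 also rose with joint induction and 2 fell, and of the 6 that fell, 5 also fell. Of all genes, 5.84% rose and 10.9% fell with joint induction.

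Against the DL1 ligand response, 2261 probe sets differed (4.14%). *HES1* rose by 0.40 with ICN induction and by 1.89 with the ligand, a difference of -1.49 (adjusted p = 3.83e-08). *HEY1* gave 4.96 and 0.74 (adjusted p of the difference = 5.23e-16). *DTX1* gave 2.31 and 0.09, *MAML2* 2.25 and 0.09, and *RHOU* 2.42 and -0.08, and each of these differences passed (adjusted p = 9.51e-07, 2.81e-09 and 1.46e-11). *IL7R*, *CD28* and *LZTFL1* rose by more with ICN induction than with the ligand, 1.87 against 0.92, 1.15 against 0.46 and 1.38 against 0.91 (adjusted p of the differences = 0.000434, 0.000471 and 0.0293). Of the 12 Notch targets that rose with ICN induction, 6 also rose with the ligand, against 1.02% of all genes, and 0 fell. Of the 6 that fell, 0 passed with the ligand, where only 0.612% of all genes fell. These comparisons differ in line and stroma as well as in the source of Notch signal, which cannot be told apart here. Starting levels differ too. For each gene named in this paragraph, the ICN line without dox already had a higher mean than the MEF2C line on OP9-DL1 stroma without dox. For *HEY1* these means were 7.02 and 6.36. No test was made between these lines.

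Against MEF2C induction in medium, 2969 probe sets differed (5.44%). The line differs here as well as the induced gene, and these cannot be told apart. *CD300A*, *CHI3L2*, *SLC3A1* and *HEY1* were higher by 4.83, 4.95, 4.49 and 4.96 with ICN induction, against -0.10, 0.09, -0.30 and 0.43 with MEF2C induction. *SLC6A13*, a transporter of GABA and related molecules, fell by 1.77 with ICN induction and rose by 3.45 with MEF2C induction, and *HEMGN* fell by 1.98 with ICN induction and rose by 1.98 with MEF2C induction. *RAG1*, *GZMA* and *IRF8* rose in both, by 1.76, 1.65 and 1.58 with ICN induction and by 2.24, 2.12 and 1.18 with MEF2C induction. *CD3G*, *CD3E* and *CD3D* rose by 1.25, 0.81 and 0.74 with ICN induction, against -0.54, -0.24 and -0.59 with MEF2C induction. *LYL1* and *LMO2* fell in both, by 0.96 and 0.82 with ICN induction and by 0.58 and 0.51 with MEF2C induction. With MEF2C induction in medium, the 2 brighter *MEF2C* probe sets fell by 1.08 and 1.04 and the third rose by 0.53 (adjusted p = 2.46e-14, 6.79e-12 and 0.0252). Under joint induction the same probe sets fell by 2.21 and 2.28 and rose by 0.66. A legend of the study places a single *MEF2C* probe set over the cloned cDNA and the rest outside it, where they read the endogenous transcript. Which of these probe sets is which was not worked out here.

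Of the 12 Notch targets that rose with ICN induction, 3 also rose with MEF2C induction in medium, and of the 6 that fell, 2 rose there. Of all genes, 5.03% rose and 3.58% fell with MEF2C induction in medium.

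**Figure D5:**
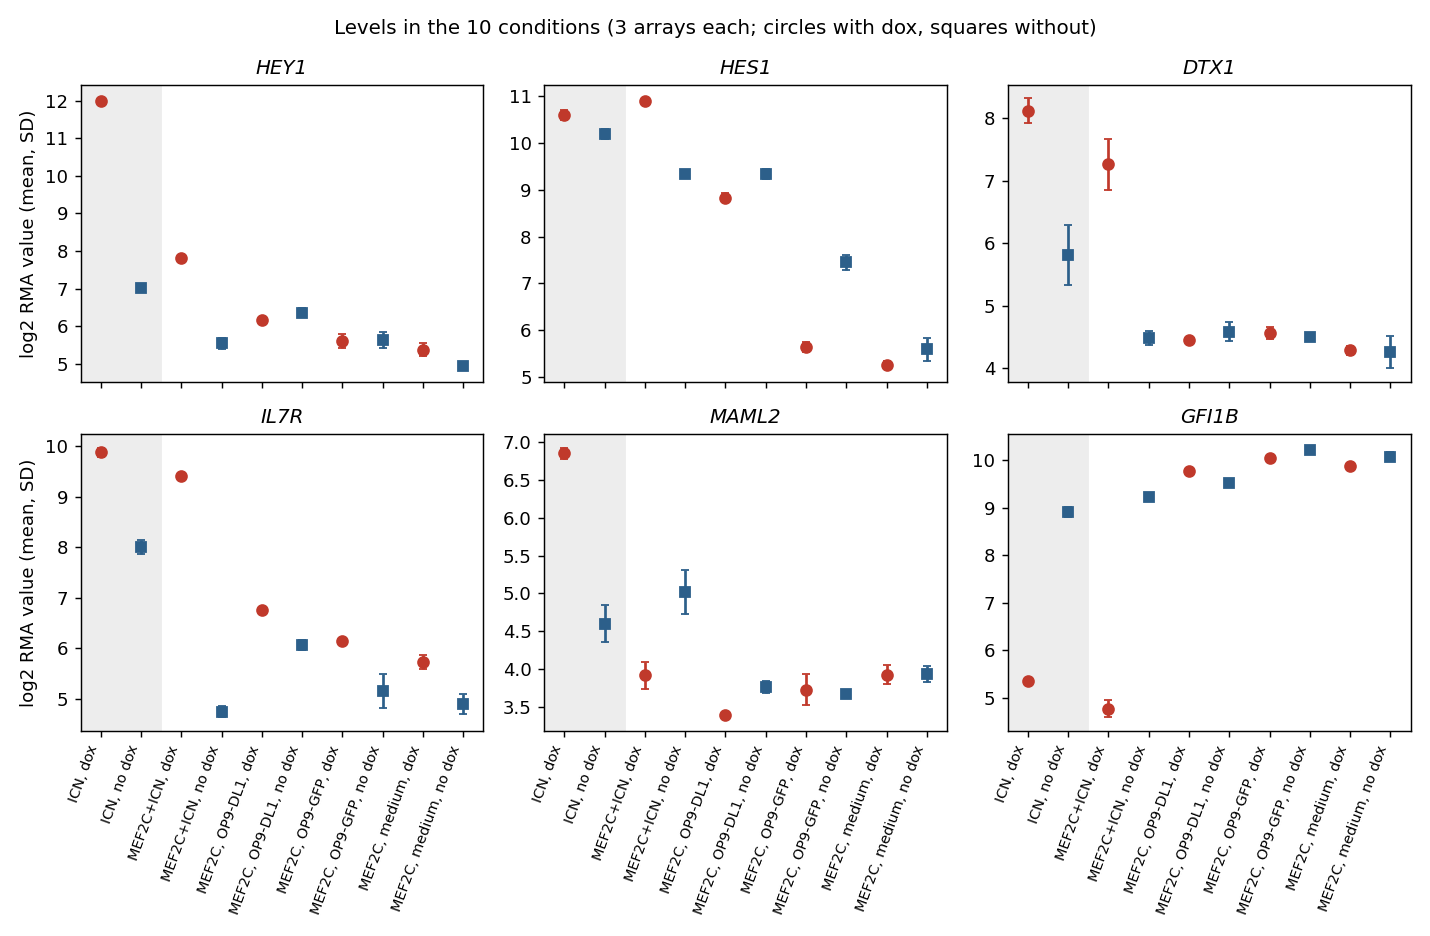
Mean log2 expression and SD over 3 arrays in the 10 conditions of the series, with dox (circles) left of without dox (squares) in each pair and the ICN line shaded. *HEY1* and *MAML2* are highest in the ICN line with dox, *HES1* and *IL7R* are already high in the ICN line without dox, and *GFI1B* is low where ICN was induced.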

How the data were processed

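RNA of LOUCY lines was hybridized to Affymetrix HG U133 Plus 2.0 arrays. The authors deposited log2 expression values made by RMA (affy 1.64.0, R 3.6.3), which corrects background, normalizes by quantiles across arrays and summarizes probes. No value was normalized again. A linear model of the 10 condition means was fitted to all 30 arrays with limma 3.58.1 in R 4.3.3, and p-values were adjusted (Benjamini-Hochberg) over 54613 probe sets. The 62 control probe sets were left out. Probe sets were counted at the study criteria and single genes were called at an adjusted p under 0.05. A gene was read by its brightest probe set among 41097 with 1 symbol, and 1801 with several and 11777 with none were not named. Named were list members, the 15 largest changes each way that did not overlap, and the 5 largest differences each way. The members and lists were chosen with earlier results of these data known. Alternatives were other thresholds, a brightness filter, other probe set rules, and quantile and median scaling. Others were the 6 arrays alone, a t-test on those arrays, a replicate block and leaving out each array. The fit was tested on simulated data.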

Additional observations from a re-analysis of the deposited data

Results flagged for a closer look

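The response of the ICN line to dox was set against each of the other comparisons, and the difference of the 2 effects was tested in the same fit. It passed at 2457 probe sets against joint MEF2C and ICN induction, at 2261 against the DL1 ligand response and at 2969 against MEF2C induction in medium. The genes below were chosen for the size of their difference or as Notch genes, so that the values are a description, and the causes were not tested.

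Against joint induction the log2 difference was 4.69 for *CD300A*, 4.46 for *MMP9*, 4.40 for *PLCB4*, 3.97 for *FBXO2* and 3.92 for *TMEM100*. It was -2.97 for *LGMN*, -3.03 for *NOG*, -3.27 for *SHISA2*, -3.68 for *KYNU* and -5.49 for *EFEMP1*.

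Against the ligand response it was 4.98 for *CHI3L2*, 4.95 for *CD300A*, 4.67 for *FBXO2*, 4.61 for *SLC3A1* and 4.61 for the *IGHV1-69* probe set. It was -2.44 for *SLC6A13*, -2.66 for *PLCL1*, -2.88 for *GFI1B*, -3.03 for *RHEX* and -3.03 for *NOG*. Among Notch genes it was 4.22 for *HEY1*, -1.49 for *HES1*, 2.22 for *DTX1*, 2.16 for *MAML2*, 0.95 for *IL7R*, 0.96 for *IGF1R* and 0.69 for *CD28*. It was -1.80 for *CCR7*, 0.88 for *GZMB*, 2.50 for *RHOU*, -1.27 for *TSPAN7* and -0.66 for *CD44*.

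Against MEF2C induction in medium it was 4.93 for *CD300A*, 4.86 for *CHI3L2*, 4.79 for *SLC3A1*, 4.55 for the *IGHV1-69* probe set and 4.53 for *HEY1*. It was -3.72 for *SHROOM3*, -3.79 for *NOG*, -3.96 for *HEMGN*, -4.83 for *CSRP3* and -5.22 for *SLC6A13*.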

How the results depend on the processing

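The count of 1875 changed probe sets became 639 at a log2 change beyond 1 and 6799 with no fold threshold, at an adjusted p under 0.05. It ran from 1811 to 2040 when 1 array was left out. With 1 array left out, the differences ran from 2344 to 2743 against joint induction, from 1986 to 2898 against the ligand and from 2845 to 3125 against MEF2C, and the calls over all gene lists from 178 to 188, against 203. The share of higher calls was 55.9%, and 45.6% among probe sets with a mean of at least 5. Of 184 called genes among the lists and the largest changes, 26 lost the call with the 6 arrays alone. Of these, *CD247*, *CD79A*, *CDK4*, *DNER*, *LFNG*, *MEF2C*, *MIB1*, *SKP2* and *SPEN* are named above. List calls with the 6 arrays alone fell by over 1.5 times for cell cycle (6, against 11), MYC and ribosome (9, against 16), *BCL2* family (3, against 6), stress response (4, against 8) and MEF2 and HDAC genes (3, against 5). The study used limma on its arrays, and a t-test for MEF2C-induced gene expression levels in LOUCY cells. With such a t-test on the 6 arrays, 67 of the 184 genes lost the call after Benjamini-Hochberg adjustment. Among them were *HES1*, *HES6*, *MFNG*, *CD3E*, *CD1B*, *PTPN6*, *IGLL1*, *POU2F2*, *BMF* and *SPRY4*, with adjusted p = 0.0593 to 0.119 in that t-test. That t-test passed 1366 probe sets at the study criteria. Deviations from the group means correlated weakly between arrays of the same replicate number (0.187, 0.054 and 0.087), against -0.151 to 0.116 between different numbers. The labels do not say whether the numbers pair the arrays. A replicate block gave 1872 for ICN induction, 2458, 2279 and 2973 for the differences and 202 for the lists. *IGHM* turned to 2.08 with the probe set of largest SD and to 0.49 with the mean over probe sets. With the probe set of largest SD, *IGHD* turned to 1.39 and *LSS* to -0.0915. *NOTCH1* passed with the mean over probe sets (0.29, adjusted p = 0.0255), as did *NOTCH3* (0.81, adjusted p = 2.17e-10). Their causes were not tested. The array has no count depth, and 3 arrays a group limit the precision.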

Other observations

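Cell cycle genes were higher with dox in the ICN line at 10 of 32 measured members (31.2%, against 6.44% of all genes) and lower at 1 (3.12%, against 9.42%). *RRM2*, a subunit of ribonucleotide reductase, rose by 0.57, and *CCND2*, which encodes cyclin D2, fell by 1.13, while *CCND3* rose by 0.49. Glycolysis and hypoxia genes rose at 8 of 20 (40%) and fell at 1 (5%), with *ADM* and *PFKFB4* higher by 0.81 and 0.54. Genes of MYC and ribosome biogenesis fell at 14 of 33 (42.4%) and rose at 2 (6.06%), among them *ODC1* and *SRM* of polyamine synthesis, lower by 0.60 and 0.50, and *PUS7*, a pseudouridine synthase, lower by 0.80. Genes of the integrated stress response fell at 7 of 18 (38.9%) and rose at 1 (5.56%). *ATF3*, *ASNS* and *SLC7A5* fell by 0.71, 0.55 and 0.50.

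Interferon-stimulated genes rose at 5 of 21 (23.8%) and fell at 2 (9.52%), with *IFI6* and *IRF7* higher by 0.81 and 0.71. Cholesterol synthesis genes rose at 1 of 14 (7.14%) and fell at 4 (28.6%). These 5 calls became 2 without dox array 1 and 3 without dox array 2 or any 1 of the no-dox arrays, and 1 with the 6 arrays alone. Of 17 NF-kappa-B genes 2 rose (11.8%) and 1 fell (5.88%), and 0 of 11 MHC class II genes passed in either direction, against 1 lower without dox array 3 or no-dox array 2. Of 27 surface stage markers of T cells 6 rose (22.2%) and 4 fell (14.8%), and of 9 genes of V(D)J recombination 1 rose (11.1%), with 1 more lower without no-dox array 3. Of 10 MEF2 family and class IIa HDAC genes 2 rose (20%) and 3 fell (30%). On the lists for other cell types, 0 of 20 myeloid genes rose and 3 fell (15%), among them *ITGAM*, an integrin chain of myeloid cells, and 0 of 8 erythroid genes rose and 2 fell (25%). On the stromal list 2 of 15 rose and 2 fell (13.3% each), with *COL5A2* higher by 1.41.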
